A study of Mus musculus with 10 samples.

Results

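The genes described here carry the names of protein subunits of the respiratory chain and of ATP synthase. Complexes were assigned by symbol too, so Ndufa4 counts under complex I and Atp5s, named Dmac2l in RefSeq, under complex V. The genes were chosen by gene symbol and by count: protein-coding genes named mt-Nd, mt-Co, mt-Cyt, mt-Atp, Nduf, Sdh, Uqcr, Cox4 to Cox8 or Atp5 with at least 10 counts in at least 5 libraries. This gave 93 of the 47729 genes in the deposited table, 13 of them on the mitochondrial genome and 80 on nuclear chromosomes. Of 97 protein-coding genes with such names, 4 missed the count rule: Cox6a2, Cox7b2, Cox8b and Cox8c, which are tissue-restricted isoforms of complex IV subunits. All 93 passed the low-count filter of the test.

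RNA came from forelimb buds of mouse embryos at embryonic day 11.5 to 12, with 5 control and 5 knockout libraries. The knockout embryos carried Prx1Cre and 2 floxed alleles of Cxxc1, the gene of a CpG-binding subunit of histone H3 lysine 4 methyltransferase complexes. Prx1Cre is a Cre transgene active in limb bud mesenchyme, so muscle precursors, blood, vessels, nerve and ectoderm in the same bud lie largely outside its reach. Control 1 carried Prx1Cre with 1 floxed and 1 wild-type allele, controls 2 and 4 carried no Cre with 1 floxed and 1 wild-type allele, and control 3 carried no Cre with 2 floxed alleles. Control 5 had 2 floxed alleles and a Cre status that its label marks with a question mark. Litter A gave controls 1 and 2 and knockouts 1 and 2, and litters B, C and D gave 1 control and 1 knockout each, numbered 3, 4 and 5. Controls 1 to 5 were at somite stage 51, 51, 50, 49 and 50 and knockouts 1 to 5 at 51, 49, 50, 51 and 49, so stage differed within some litters. The labels count 5 embryos per group, from different breeding pairs, and do not say whether both forelimbs of an embryo were pooled.

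The respiratory chain moves electrons from NADH and succinate to oxygen through complexes I to IV in the inner mitochondrial membrane, and pumps protons as it does so. Complex V, the ATP synthase, makes ATP as those protons flow back. Complex II is encoded wholly in the nucleus, whereas each of the other complexes joins subunits made inside the mitochondrion to subunits imported from the cytosol. The mitochondrial genes are transcribed as long precursors from the mitochondrial genome and cut into separate messenger RNAs, so their levels share a common origin, whereas each nuclear subunit gene has a promoter of its own.

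Total counts ran from 33274911 to 49880815 per library. Cxxc1 itself was at 96.7 ± 6.88 CPM among controls against 75.2 ± 1.23 among knockouts (SD, n = 5 each), CPM being the count scaled to library size after TMM normalization. Every knockout was below every control. Xist, transcribed from the inactive X chromosome, was high in control 1 (4114 CPM) and knockout 3 (2290 CPM), and at most 5.48 CPM elsewhere. Embryo sex is not labelled, and the closing section names the calls that change without these 2 libraries. The quasi-likelihood test of edgeR, with p-values adjusted by Benjamini-Hochberg over all 20562 genes, called 35.2% at an adjusted p below 0.05, 18.1% higher and 17.1% lower in the knockout. The groups did not overlap for 25.3% of genes. A called gene is therefore common in this comparison, and counts of respiratory chain genes are read against these shares.

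In the knockout, messenger RNAs of complex I subunits encoded by the mitochondrial genome rose by up to 1.43-fold on deposited counts. That value is of mt-Nd3, whose call was lost once near-identical copies, described below, were counted. Among those whose call held, mt-Nd6 rose most, by 1.41-fold. Nuclear subunit genes moved in both directions by mostly smaller amounts. Of the 13 mitochondrially encoded genes, on deposited counts, 7 were called higher and none lower, and 6 did not pass. That is 53.8% called, against 41.6% of protein-coding genes tested. The median log2 fold change (knockout over control) of the 13 was 0.37, against -0.001 over all genes tested. The groups did not overlap for 5 of the 13, and for 25.3% of all genes. Of the 80 nuclear genes, 25 rose and 7 fell, and 48 missed the threshold, with a median of 0.06 and a range from -0.46 to 2.09. That is 32 of 80 called, a share near the 41.6% of all protein-coding genes tested. By direction, 3276 of the 15391 protein-coding genes were called higher and 3124 lower. Log2 fold changes were above 0 for 56 of the 80 and below 0 for 24, against 7771 and 7620 of the protein-coding genes. The groups did not overlap for 23 of the 80 and for 4642 of the 15391. With scaling by library size only, which called 35.1% of all genes, 21.8% higher and 13.3% lower, 11 mitochondrial genes were higher, and 36 nuclear genes were higher and 2 lower. Without litter A, with 19.6% of all genes called, 9.73% higher and 9.83% lower, 7 mitochondrial and 10 nuclear genes were called. With somite stage as a term, which called 6792 genes in all, 28 nuclear and 8 mitochondrial genes were called. The largest change among the nuclear genes was in Cox6b2, a complex IV subunit isoform known mainly from testis, which rose 4.25-fold.

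Counting of 9 of the mitochondrial genes and 21 of the nuclear genes is complicated by near-identical copies elsewhere in the genome. A copy was another gene whose transcript aligned to a member's transcript over at least 200 bases at 95% identity or more. In all, 30 of the 93 genes had such a copy, and for 13 of them the copies held more than 10% of the joint counts. For the mitochondrial genome the copies of weight lie side by side in a nuclear insertion of mitochondrial DNA on chromosome 1, where 5 annotated pseudogenes span 24612775 to 24616197 (GRCm38, minus strand). Their first 60 aligned bases are set beside the mitochondrial transcripts below, because identical sequence is what leaves a read without a unique origin. Positions count from the first base of the mitochondrial transcript (from 1063 for mt-Co1), and capitals mark the 1 base that differs within a pair.

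mt-Atp6: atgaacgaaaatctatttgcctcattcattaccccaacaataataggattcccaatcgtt
Gm10925: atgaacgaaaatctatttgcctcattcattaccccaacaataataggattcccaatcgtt
mt-Co2: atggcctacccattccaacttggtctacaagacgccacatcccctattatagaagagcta
Gm28661: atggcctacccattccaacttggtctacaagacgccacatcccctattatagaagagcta
mt-Co3: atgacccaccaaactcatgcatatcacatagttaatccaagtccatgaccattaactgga
Gm28437: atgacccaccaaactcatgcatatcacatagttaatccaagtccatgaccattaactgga
mt-Nd3: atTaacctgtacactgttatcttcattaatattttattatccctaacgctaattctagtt
Gm28438: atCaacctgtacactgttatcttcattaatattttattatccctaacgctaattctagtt
mt-Co1: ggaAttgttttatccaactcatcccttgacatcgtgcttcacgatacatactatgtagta
Gm29216: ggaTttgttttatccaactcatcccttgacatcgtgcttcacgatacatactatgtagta

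Over the whole alignment, the copies of mt-Atp6, mt-Co2 and mt-Co3 had 0 mismatches in 678, 681 and 783 bases. The copy of mt-Nd3 had 1 mismatch in 345 bases, at position 3, and the copy of mt-Co1 had 1 in 483 bases, at position 1066. The copies took 87.9% of the joint counts of mt-Co2, 82.4% of mt-Nd3, 81.3% of mt-Co3, 50.9% of mt-Atp6 and 17.7% of mt-Co1. The copies of mt-Nd2 and mt-Nd5 took under 0.01%, and those of mt-Nd4 and mt-Nd4l had 0 counts.

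For mt-Atp6 this division differed between the groups. The copy took 57.1, 66.6, 61.3, 56.6 and 53.7% of the joint counts in controls 1 to 5, and 48.0, 42.2, 51.6, 41.4 and 41.4% in knockouts 1 to 5. Every knockout lay below every control. Because the aligned bases are identical, the division cannot be read as transcription of one copy or the other, so values with copies added are given below for the members on whose counts the copies weigh. Adding copies left 4 mitochondrial genes called, mt-Nd1, mt-Nd2, mt-Nd5 and mt-Nd6, with a median log2 fold change of 0.25 over the 13 genes, and 35.2% of all genes called. Those 4 are 30.8% of the 13, below the 41.6% of protein-coding genes called in the same fit.

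**Figure D1:**
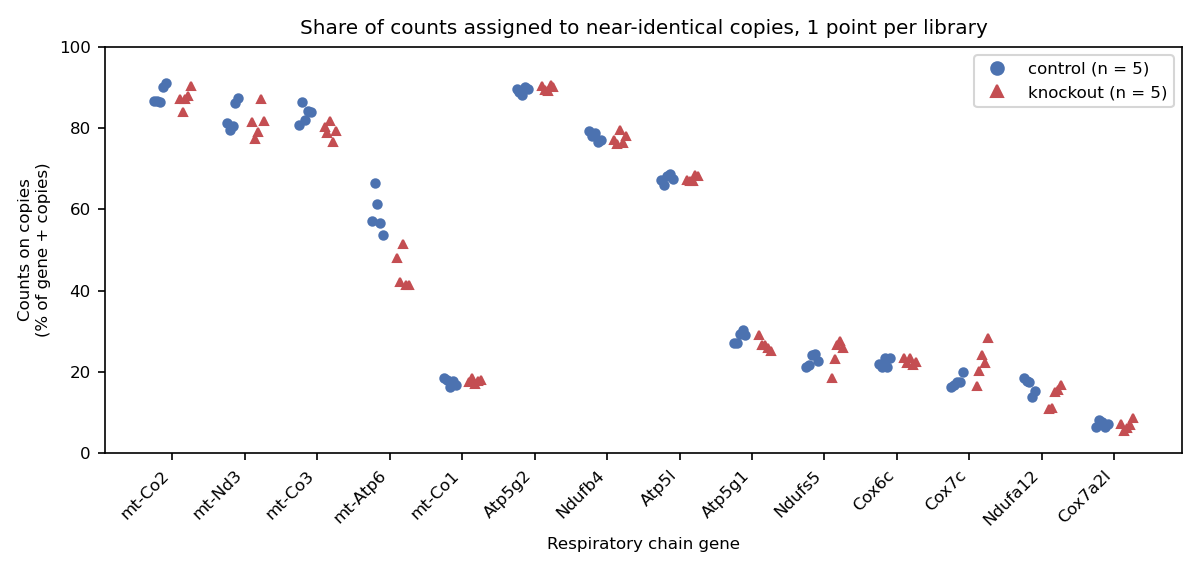
Percent of joint counts (gene plus near-identical copies) that the deposited table assigns to the copies, on the vertical axis, for 14 respiratory chain genes; circles are control libraries and triangles knockout libraries (n = 5 each). For mt-Atp6 all knockouts (41.4 to 51.6%) lie below all controls (53.7 to 66.6%), while for mt-Co1, Atp5g2 and Atp5l the groups overlap.

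Of the 7 mitochondrially encoded subunits of complex I, the NADH dehydrogenase, 4 rose whether or not copies were added. mt-Nd1, a membrane subunit next to the quinone site (chromosome M, 2751 to 3707, plus strand), was at 2367, 2148, 1807, 2357 and 2306 CPM in controls 1 to 5 and at 2582, 2489, 2541, 3075 and 3484 CPM in knockouts 1 to 5. All knockouts exceeded all controls, and knockouts 4 and 5 stood highest. Its log2 fold change was 0.37 (SE 0.10, edgeR adjusted p = 0.0152).

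mt-Nd6, the only one of the 13 on the other strand (13552 to 14070, minus strand), was at 674, 561, 470, 599 and 589 CPM in controls and at 705, 718, 677, 928 and 1058 CPM in knockouts. The groups again did not overlap, although control 1 and knockout 3 lay close together. Its log2 fold change was 0.50 (SE 0.13, edgeR adjusted p = 0.0101). mt-Nd2, a proton-pumping membrane subunit, was at 1057 ± 128 CPM in controls and 1418 ± 236 in knockouts (SD, n = 5 each), and its log2 fold change was 0.42 (edgeR adjusted p = 0.0117). mt-Nd5, another pumping subunit, was at 1847 ± 175 and 2307 ± 304 CPM (SD, n = 5 each), and its log2 fold change was 0.32 (edgeR adjusted p = 0.0162). For these 4 genes the mean difference was above 0 in all 4 litters and smallest in litter A.

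The calls of the other 3 complex I genes of the mitochondrial genome depended on the counting, the scaling or the model. mt-Nd4, the remaining large pumping subunit, had a log2 fold change of 0.24 that missed the threshold without a litter term (edgeR adjusted p = 0.0637) and passed with litter as a block (adjusted p = 0.0234) and with scaling by library size only (0.0179). mt-Nd4l, whose reading frame overlaps that of mt-Nd4 over 2.36% of its length, had a log2 fold change of 0.24. This gene missed the threshold without the block (edgeR adjusted p = 0.116), passing with it (0.0366) and with library size only (0.0455). mt-Nd3 passed with its deposited counts (log2 fold change 0.51, edgeR adjusted p = 0.0245) and missed with its copy added (0.38, adjusted p = 0.0694). The mt-Nd3 call was also lost without control 3 (adjusted p = 0.061), without control 5 (0.0599) and without knockout 5 (0.0566).

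No mitochondrially encoded subunit of complexes III, IV and V was called with copies added. mt-Cytb, the cytochrome b of complex III, was at 3550 ± 349 CPM in controls and 4057 ± 472 in knockouts (SD, n = 5 each), and its log2 fold change was 0.19 (edgeR adjusted p = 0.109). mt-Co1, which holds the site where complex IV reduces oxygen, was the most abundant of the 13. It was at 7204, 6595, 5460, 6890 and 6441 CPM in controls and at 6443, 6408, 6481, 7609 and 8221 CPM in knockouts. The groups overlapped widely, and its log2 fold change was 0.11 both on deposited counts (SE 0.09, edgeR adjusted p = 0.376) and with its copy added (adjusted p = 0.373).

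mt-Co3, a core subunit of complex IV, had a log2 fold change of 0.44 with deposited counts (edgeR adjusted p = 0.0322) and 0.10 with its copy added (0.488). The mt-Co3 call on deposited counts was lost on leaving out any of control 2, control 3, control 5, knockout 4 or knockout 5 (adjusted p from 0.0651 to 0.0828). mt-Co2, which receives electrons from cytochrome c, missed the threshold (0.28, adjusted p = 0.0546). With litter as a block it passed (adjusted p = 0.0155), and with copies added its log2 fold change was 0.18 (0.171).

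mt-Atp6, the proton channel subunit of complex V, showed the largest log2 fold change of the 13 on deposited counts, 0.68 (SE 0.19, edgeR adjusted p = 0.0125). It was at 1128, 807, 758, 1196 and 1153 CPM in controls and at 1336, 1403, 1199, 1871 and 2295 CPM in knockouts. With its copy added the groups overlapped, from 1961 to 2757 CPM in controls and from 2429 to 3916 CPM in knockouts, and the log2 fold change was 0.25 (SE 0.13, adjusted p = 0.174). mt-Atp8, whose reading frame overlaps that of mt-Atp6 over 21.1% of its length, was at 96.9 ± 19.7 and 127.8 ± 54.2 CPM (SD, n = 5 each) and did not pass (0.40, adjusted p = 0.223).

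**Figure D2:**
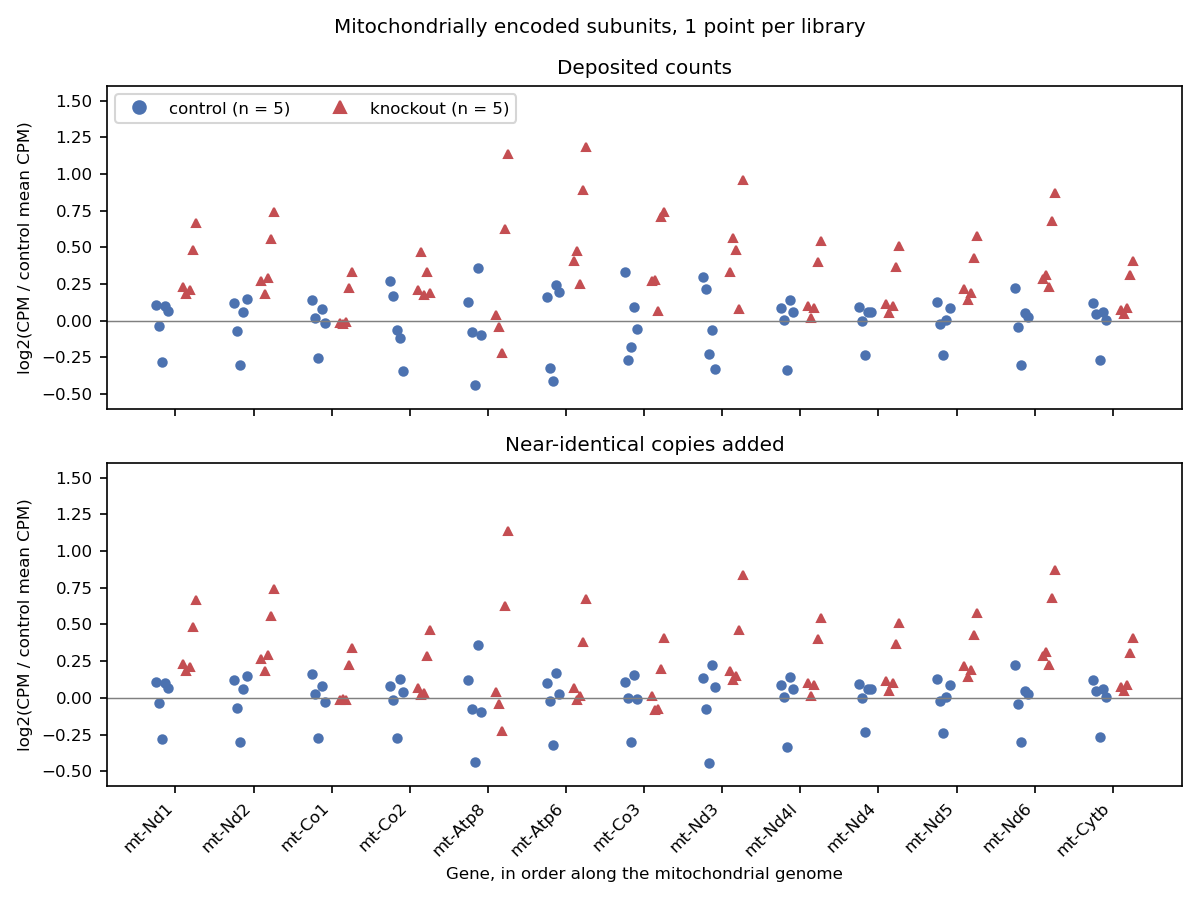
The 13 mitochondrially encoded genes in order along the mitochondrial genome; the vertical axis is log2 of each library's CPM over the control mean, circles are controls and triangles knockouts (n = 5 each), with deposited counts above and near-identical copies added below. Knockouts 4 and 5 (the 2 rightmost triangles of each gene) are the highest for most genes, and adding the copy moves the mt-Atp6 and mt-Co3 knockouts toward the controls.

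As a share of all counts, the 13 mitochondrial genes made up 2.01 ± 0.197% in controls and 2.50 ± 0.33% in knockouts (SD, n = 5 each). The controls held 2.23, 1.98, 1.70, 2.11 and 2.01%, and the knockouts 2.30, 2.30, 2.20, 2.71 and 2.97%. The ranges overlapped, since control 1 exceeded knockout 3, and no test was run on this sum. With copies added the shares were 2.77 ± 0.28% and 3.33 ± 0.444%. The nuclear genes together made up 0.871 ± 0.0301% and 0.964 ± 0.0233%, and here every knockout exceeded every control. These shares use raw library totals without TMM scaling. With library size only, the median log2 fold change over all genes tested was 0.051, against -0.001 with TMM. The separation of the nuclear shares rests on the raw totals. Once divided by their TMM factors, 0.9796 for control 4 and 1.002 for knockout 5, their shares of 0.909% and 0.928% no longer separate. Per kilobase of exon, the mitochondrial genes with copies added had a median control level of 1750 CPM, against 48.4 CPM for the nuclear genes.

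Within the mitochondrial messenger RNAs, with copies added, the mix differed between the groups. mt-Nd1 held 7.78 ± 0.171% of these counts in controls and 8.65 ± 0.0664% in knockouts, and mt-Nd6 2.05 ± 0.0861% and 2.48 ± 0.156% (SD, n = 5 each). The shares of mt-Nd2 and mt-Nd5 were also higher in every knockout than in every control. mt-Co3 moved the other way, from 9.51 ± 0.249% to 8.82 ± 0.189%, with no overlap. mt-Co1 held 28.0 ± 0.667% and 26.2 ± 0.697%, with overlap. These shares sum to a whole, so a higher share of one gene requires a lower share of others. The ribosomal RNAs of the same genome did not pass: mt-Rnr1 was at 324.6 ± 31.8 and 380.6 ± 74.2 CPM (log2 fold change 0.23, edgeR adjusted p = 0.15), and mt-Rnr2 at 631.2 ± 131 and 673.7 ± 135 CPM (0.09, adjusted p = 0.69), SD with n = 5 each.

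Markers of other cell types moved in the same comparison. Of 12 erythroid markers, 11 were higher, with a summed level of 3060 to 3620 CPM in controls and 3830 to 7980 CPM in knockouts. All 12 macrophage markers were higher (60.4 to 76.3 CPM summed against 224 to 265), as were 9 of 10 endothelial and 8 of 11 ectodermal markers. Of 10 limb mesenchyme markers, 5 were lower and none higher (2140 to 2270 CPM summed against 1240 to 1400), and 3 of 16 muscle lineage markers were higher and none lower. The muscle list had a median log2 fold change of -0.19, with 10 of 16 below 0, and summed to 245 to 333 CPM in controls and 100 to 377 CPM in knockouts. Of 8 Schwann and melanoblast markers, 1 was higher and 2 lower. None of these markers was at 0 in any library. In bulk RNA, fewer cells of a type and less RNA per cell cannot be told apart, and the part of cell makeup in the respiratory chain differences was not tested.

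The nuclear genes had promoter windows richer in CpG and in some motifs than the average window. RefSeq windows of 300 bases (250 before to 50 after the gene start, GRCm38.p6) were matched for 66 of the 80 nuclear genes. Their median number of CpG was 19, against 7 over all 32817 windows. Exact matches on either strand to the palindromic NRF1 motif lay in 24.2% of members' windows and 4.59% of all windows. For the core CCGGAAG of ETS factors such as GABP the shares were 22.7% and 8.86%, and for AAGATGGC, bound by YY1, 13.6% and 2.74%. A match is a description of the letters and not a bound site. The full set of windows was not limited to genes expressed here, and a contrast with other expressed genes was not tested. Windows followed the RefSeq start, which for Atp5d lay 3643 bases from the GENCODE start. The windows of the 21 genes called higher and the 40 that did not pass had medians of 19 and 19.5 CpG, and the 5 called lower had a median of 20. Below are the exon-free bases before the start of the Cox6b pair and of the genes with a clear rise and fall in complexes III and V, 5′ to 3′ with each CpG in capitals, to show how far CpG density varies among them.

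Cox6b2 (chr7:4753095-4753225, minus strand): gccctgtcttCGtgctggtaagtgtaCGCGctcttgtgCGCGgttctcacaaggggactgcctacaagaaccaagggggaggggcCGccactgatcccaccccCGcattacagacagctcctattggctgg
Cox6b1 (chr7:30626152-30626364, minus strand): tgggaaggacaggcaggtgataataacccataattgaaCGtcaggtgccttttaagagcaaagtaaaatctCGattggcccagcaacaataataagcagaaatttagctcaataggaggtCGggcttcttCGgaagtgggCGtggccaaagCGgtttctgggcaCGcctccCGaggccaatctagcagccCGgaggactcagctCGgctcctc
Uqcr11 (chr10:80406831-80407071, minus strand): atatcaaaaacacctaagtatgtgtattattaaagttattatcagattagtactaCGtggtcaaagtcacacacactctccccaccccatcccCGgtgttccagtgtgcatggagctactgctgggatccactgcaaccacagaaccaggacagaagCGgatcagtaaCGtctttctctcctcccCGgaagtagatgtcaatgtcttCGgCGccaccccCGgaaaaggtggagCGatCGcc
Atp5j (chr16:84835626-84835875, minus strand): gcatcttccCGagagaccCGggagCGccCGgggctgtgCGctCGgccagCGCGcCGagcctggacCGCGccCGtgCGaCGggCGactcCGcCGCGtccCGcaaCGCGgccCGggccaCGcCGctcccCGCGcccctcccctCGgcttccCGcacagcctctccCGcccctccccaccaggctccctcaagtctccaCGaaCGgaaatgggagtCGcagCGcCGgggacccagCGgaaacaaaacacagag

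The whole 300-base window held 10 CpG for Cox6b2, 17 for Cox6b1, 16 for Uqcr11 and 43 for Atp5j. An ETS core lay 66 bases before the RefSeq start of Uqcr11 and 28 bases before that of Cox6b1. The Cox6b1 core falls inside the gene as GENCODE annotates it, so it is not among the bases printed above. No match to any of these motifs lay in the windows of Cox6b2 and Atp5j.

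Complex I, the largest complex, had 37 nuclear members, of which 9 rose and 4 fell, and 24 missed the threshold (median log2 fold change 0.05). Their called share, 35.1%, was below the 41.6% of protein-coding genes tested. Several of those that rose are small accessory subunits of the membrane arm. Ndufb6 was at 36.7, 35.2, 29.96, 37.5 and 32.2 CPM in controls and at 46.6, 47.1, 44.5, 45.7 and 47.1 CPM in knockouts. All knockouts exceeded all controls, in all 4 litters, with a log2 fold change of 0.43 (SE 0.06, edgeR adjusted p = 0.000268). The gene Smim27 on the opposite strand covers 39.0% of the exon bases of Ndufb6 and was also higher, from 2.55 to 3.50 CPM, so part of the Ndufb6 count is less certain if reads were counted without strand.

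Ndufb10, another accessory subunit, was at 56.6 ± 3.26 CPM in controls against 68.3 ± 2.5 in knockouts, and Ndufb7 at 51.5 ± 3.3 and 59.3 ± 0.739 CPM (SD, n = 5 each). Ndufa10, a nucleoside-kinase-like subunit, was at 114 ± 4.94 and 134.3 ± 10.7 CPM (SD, n = 5 each). Their log2 fold changes were 0.27, 0.20 and 0.24, with no overlap between groups. Also higher were Ndufa8, Ndufa12, Ndufb8 and Ndufb9, by 0.15 to 0.29, and Ndufa12, the highest of these, was at 0.25 with its copies added (edgeR adjusted p = 0.0187). Without litter A, with 3 libraries per group, Ndufb6 and Ndufb10 were still called, while Ndufb7 (adjusted p = 0.127) and Ndufa10 (0.0845) were not.

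The accessory subunits Ndufa2, Ndufa3 and Ndufa6 were among the complex I genes that fell, by 0.20, 0.18 and 0.17 on the log2 scale. With scaling by library size only they were not called (edgeR adjusted p = 0.111, 0.105 and 0.086). The core subunits Ndufs1 and Ndufs3 and the flavin-binding Ndufv1 did not pass the test, with log2 fold changes of 0.088, 0.098 and 0.051.

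Ndufa4, which carries a complex I name but is known as a subunit associated with complex IV, was at 115.1 ± 12.2 and 127.9 ± 7.39 CPM (SD, n = 5 each) and did not pass (log2 fold change 0.15, edgeR adjusted p = 0.12). Its paralog Ndufa4l2, a hypoxia-induced gene, was close to the counting limit at 0.04, 0.30, 0.37, 0.25 and 0.20 CPM in controls and 0.47, 0.57, 0.60, 0.46 and 0.63 CPM in knockouts. It rose by 1.22 on the log2 scale (SE 0.37, edgeR adjusted p = 0.0211), and was not called without litter A (adjusted p = 0.0725). In control 1 its level was below that of 3 counts, 0.066 CPM. The X-linked genes Ndufa1 and Ndufb11 stayed within 0.03 of no change and did not pass.

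Complex II, succinate dehydrogenase, links the citric acid cycle to the chain and has 4 members here. Sdhb, its iron-sulfur subunit, was the only one called. It was at 111.6, 109.2, 103.2, 119.0 and 119.6 CPM in controls and at 127.9, 132.1, 132.6, 135.1 and 135.7 CPM in knockouts. All knockouts exceeded all controls, with a log2 fold change of 0.24 (SE 0.05, edgeR adjusted p = 0.00154). The flavoprotein Sdha (0.03, adjusted p = 0.664) and the membrane anchors Sdhc (-0.12, adjusted p = 0.122) and Sdhd (-0.01, adjusted p = 0.853) did not pass.

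Complex III, the cytochrome bc1 complex, had 4 of 8 nuclear members higher and none lower, or 50.0% called against 41.6% of protein-coding genes tested. Complex III had a median log2 fold change of 0.12 over these 8. Uqcr11, its smallest accessory subunit, showed the clearest difference. It was at 48.3, 48.5, 44.8, 53.2 and 51.6 CPM in controls and at 64.9, 65.8, 66.5, 64.7 and 64.6 CPM in knockouts. The lowest knockout lay 11.4 CPM above the highest control, and the log2 fold change was 0.41 (SE 0.05, edgeR adjusted p = 6.68e-05). Uqcr10 (0.19), Uqcrq (0.18) and the core protein Uqcrc1 (0.26) were also called, each with some overlap between the groups. Uqcrq lay near the threshold (adjusted p = 0.0475) and was lost when any of controls 1, 2, 3 and 5 or knockouts 1, 2, 3 and 4 was left out. The other core protein, Uqcrc2, and the Rieske iron-sulfur protein Uqcrfs1 did not pass (0.03 and 0.05).

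**Figure D3:**
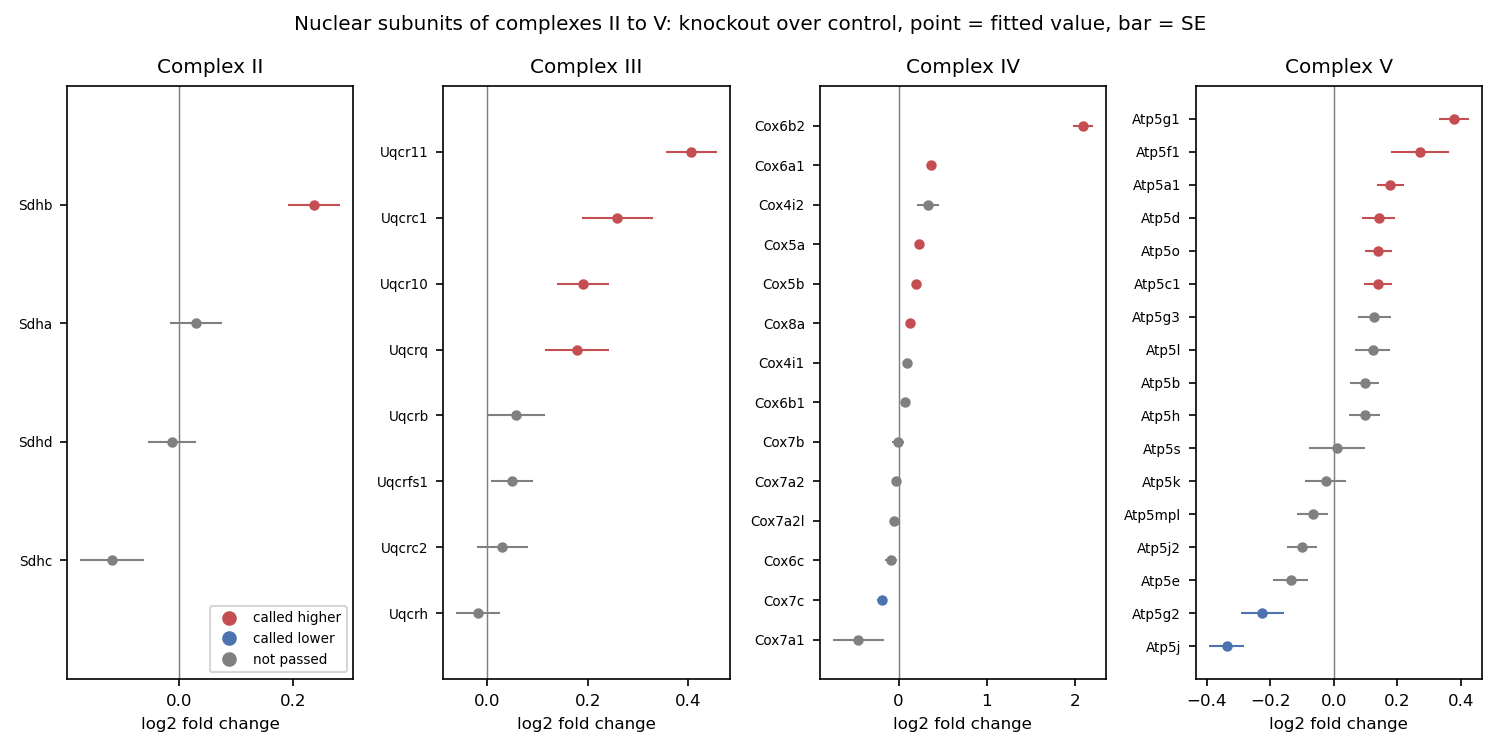
Fitted log2 fold change of knockout over control (horizontal axis, scaled separately in each panel) with its SE as a bar, for the nuclear genes of complexes II to V; red is called higher, blue called lower and grey not passed. Cox6b2 at 2.09 lies far from the other complex IV genes, and the other values shown lie between -0.46 and 0.41.

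Complex IV, cytochrome c oxidase, had 14 nuclear members, of which 5 rose and 1 fell. That is 42.9% called, near the 41.6% of protein-coding genes tested. Cox6b2 (chromosome 7, 4751792 to 4753094, minus strand) was at 7.91, 7.24, 7.13, 6.62 and 9.11 CPM in controls and at 35.9, 36.3, 25.1, 32.1 and 31.9 CPM in knockouts. The lowest knockout was at 2.75 times the highest control, and the log2 fold change was 2.09 (SE 0.11, edgeR adjusted p = 9.3e-08). By litter the difference was 2.25, 1.81, 2.28 and 1.81 for A, B, C and D. Cox6b1, the broadly expressed isoform of the same subunit, was at 129.3 ± 4.99 and 135.9 ± 3.18 CPM (SD, n = 5 each) and did not pass (0.07, adjusted p = 0.172). Per kilobase of exon, Cox6b2 went from 6.86 to 29.1 CPM, and Cox6b1 from 182.7 to 192.0 CPM.

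Cox6a1, the broadly expressed isoform of another accessory subunit, was at 93.8, 91.8, 89.3, 102.0 and 100.1 CPM in controls and 121.5, 125.6, 124.9, 124.7 and 118.8 CPM in knockouts. The groups were well apart, with a log2 fold change of 0.37 (SE 0.04, edgeR adjusted p = 5.47e-05). Cox5a and Cox5b, which pack against the catalytic core, rose by 0.23 and 0.19 on the log2 scale, and Cox8a by 0.13 near the threshold (adjusted p = 0.0398). The Cox8a call was lost without any 1 of controls 1, 2, 3 and 5 or knockouts 1, 2, 3 and 4. Cox7c was lower on deposited counts (-0.19, adjusted p = 0.0157) and missed the threshold with its copy added (-0.11, adjusted p = 0.0865).

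The remaining isoforms of complex IV did not pass. With library size only, Cox4i1, Cox4i2 and Cox6b1 were called higher, as were Ndufa4, Atp5g3 and mt-Cytb (edgeR adjusted p from 0.0179 to 0.039). Cox4i1, the common isoform of a regulatory subunit, was at 228.6 ± 7.54 and 244 ± 13.2 CPM, and its counterpart Cox4i2, known from lung and hypoxia, at 7.07 ± 0.955 and 8.91 ± 1.39 CPM (SD, n = 5 each). The difference in Cox4i2 came from litter A, at 0.76, while litters B, C and D gave 0.10, 0.004 and 0.02. Cox7a1, the muscle and heart isoform, stayed below 0.6 CPM in every library, at 0.390 ± 0.104 and 0.288 ± 0.0951 CPM (SD, n = 5 each). Cox7a2, its common counterpart, Cox7a2l, a factor of supercomplexes, and the X-linked Cox7b lay within 0.05 of no change. Among the isoforms under the count rule, Cox6a2 and Cox8b, both from striated muscle, had at most 9 and 2 counts in any library, Cox7b2 had up to 25, and Cox8c, from testis, had 0 in all, which allows at most 0.0905 CPM in the shallowest library at 3 counts.

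**Figure D4:**
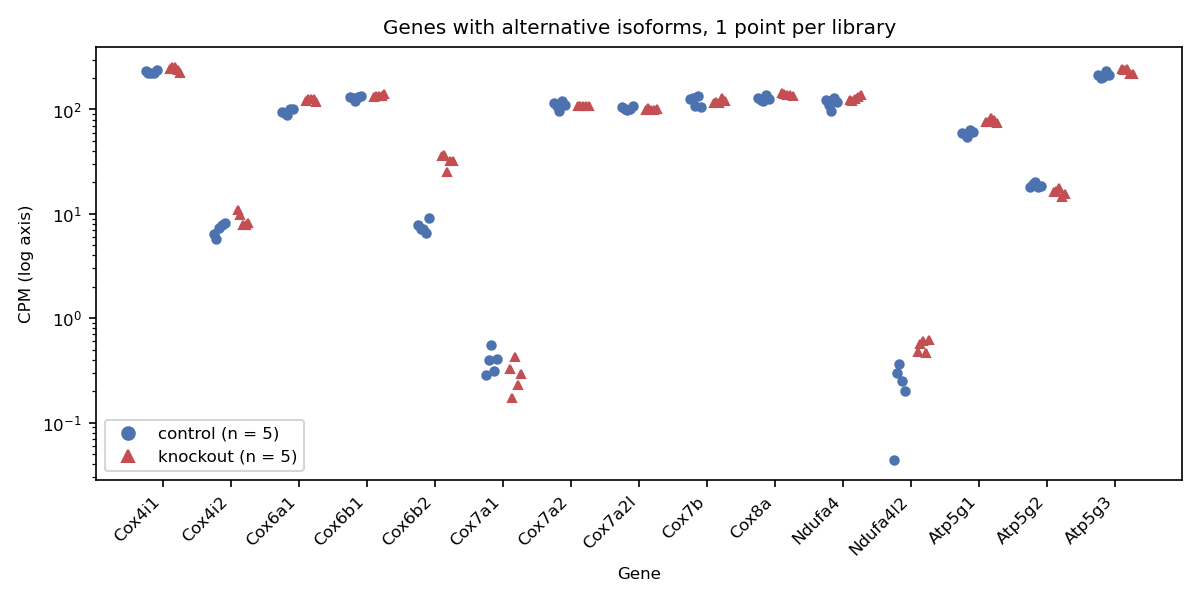
CPM on a log axis for genes with alternative isoforms, 1 point per library; circles are controls and triangles knockouts (n = 5 each). Cox6b2 moves from about 8 to about 32 CPM while Cox6b1 stays near 130 CPM, and Cox7a1 and Ndufa4l2 lie below 1 CPM in all libraries.

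Complex V, the ATP synthase, had 17 nuclear members, of which 6 rose and 2 fell. That is 47.1% called, against 41.6% of protein-coding genes tested. Atp5g1, Atp5g2 and Atp5g3 encode the same mature ring subunit c with different targeting sequences, and they differed. Atp5g1 was at 60.1, 58.2, 54.8, 62.9 and 60.3 CPM in controls and 75.2, 75.4, 82.0, 78.6 and 73.8 CPM in knockouts, a rise of 0.38 on the log2 scale with no overlap (SE 0.05, edgeR adjusted p = 9.17e-05). With its copies added, which held 27.5% of the joint counts, the rise was 0.34 (adjusted p = 0.000262). Atp5g2 fell by 0.23 on deposited counts, where 89.6% of the joint counts lay on its copies, and by 0.14 with copies added (adjusted p = 0.0217 and 0.0131). Its call was lost with scaling by library size only (adjusted p = 0.0815), without litter A (0.134), without control 3 (0.0526) and without knockout 4 (0.0568). Atp5g3, the most abundant of the set at 212.9 ± 12.5 and 232.6 ± 12.8 CPM (SD, n = 5 each), did not pass (0.13, adjusted p = 0.077).

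Atp5j, coupling factor 6 of the peripheral stalk (chromosome 16, 84827866 to 84835625, minus strand), showed the largest fall among called members. It was at 153.5, 142.8, 129.0, 142.1 and 139.2 CPM in controls and at 122.1, 114.4, 113.9, 104.1 and 104.8 CPM in knockouts. The groups did not overlap and all 4 litters moved down, with a log2 fold change of -0.34 (SE 0.06, edgeR adjusted p = 0.000626). Gabpa, which encodes a subunit of the ETS factor GABP and shares 12.7% of the exon bases of Atp5j from the opposite strand, was at 86.9 ± 5.55 and 86.3 ± 4.85 CPM (SD, n = 5 each) and did not pass.

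Among the remaining complex V genes that rose was the alpha subunit Atp5a1, at 983.6 ± 30.9 and 1113 ± 44.8 CPM (SD, n = 5 each). The others were the stalk subunits Atp5c1, Atp5d and Atp5o, and the peripheral stalk subunit Atp5f1. In that order, starting with Atp5a1, the log2 fold changes were 0.18, 0.14, 0.14, 0.14 and 0.27. None of these genes was called without litter A, at edgeR adjusted p = 0.135 for Atp5a1 and 0.0556 for Atp5f1. In the main fit Atp5f1 had passed at 0.0353. The calls of Atp5c1, Atp5d and Atp5o were weak in further ways. Atp5d passed without a litter term (adjusted p = 0.0475) and missed with litter as a block (0.0612). Atp5c1 was lost without control 2, control 3, knockout 3, knockout 4 or knockout 5, and Atp5o without knockout 3 or knockout 4. The catalytic beta subunit, Atp5b, the most abundant nuclear member by CPM, was at 1090 ± 55.9 and 1167 ± 38.3 CPM (SD, n = 5 each). It did not pass (0.10, edgeR adjusted p = 0.124).

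Electron carriers and factors that build the complexes were taken from lists outside the rule. Of 13 carriers and further subunits, 5 were higher and none lower, a called share of 38.5%. That is near the 35.2% of all genes and below the 41.6% of protein-coding genes tested. Among those called, Cyc1, the cytochrome c1 of complex III, went from 105.7 ± 7.61 to 139.0 ± 6.64 CPM. Cycs, the cytochrome c that carries electrons to complex IV, went from 36.9 ± 4.27 to 53.8 ± 8.89 CPM. The acyl carrier Ndufab1 went from 80.9 ± 6.06 to 98.8 ± 2.43 CPM (SD, n = 5 each). Of 53 assembly factors tested for complexes I to V, 13 were higher and 5 lower, a called share of 34.0%. This share also lies near that of all genes and below that of protein-coding genes. In complex I assembly, Ndufaf3 and Tmem126b fell by 0.46 and 0.32 on the log2 scale, and Ecsit rose by 0.26. In complex IV assembly, the copper chaperones Sco1 and Sco2 rose by 0.38 and 0.77, and Cox20 fell by 0.49.

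Of 18 genes for transcription and replication of the mitochondrial genome, 3 were higher and 2 lower. Their called share of 27.8% was below the 35.2% of all genes and the 41.6% of protein-coding genes tested. Top1mt, the mitochondrial topoisomerase, was at 5.92 ± 0.315 and 10.8 ± 0.449 CPM, the helicase Twnk at 47.5 ± 2.86 and 62.3 ± 0.994 CPM, and Polrmt, the mitochondrial RNA polymerase, at 33.5 ± 3.54 and 40.4 ± 1.46 CPM (SD, n = 5 each). Mterf2, of the termination factor family, fell by 0.37 on the log2 scale. Of 19 genes for mitochondrial RNA processing and stability, 4 were higher and 2 lower. Their called share of 31.6% was below that of all genes and that of protein-coding genes. Among them, Rexo2, an exonuclease of short RNA, was at a log2 fold change of 0.51.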

How the data were processed

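Total RNA of 10 mouse forelimb samples was sequenced from libraries made, per the labels, with a TrueSeq RNA kit. The submitters' processing notes list mm10, DESeq2 1.16.1, Salmon 0.8.2 and R 3.4.1. Whether poly(A) RNA was selected or strand was used is not stated there. The main table held estimated counts per Ensembl gene, deposited by the authors (0.059% of values whole within 1e-06), rounded here. The other table deposited, although its name says FPKM, is a signal: 100.00% of its values were a rounded count divided by 1 factor per library (within 0.01). It served only as an alternative, on log2(value + 1). Symbols came from GENCODE M21 (GRCm38): 47310 of 47729 IDs had one. Columns of no sample: 0.

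The members and lists were chosen with earlier results of these data known. Genes were filtered with filterByExpr (minimum count 10, total 15), normalized with TMM, then fitted in R 4.3.3 with glmQLFit and glmQLFTest of edgeR 4.0.16, knockout against control, without covariates, adjusted over 20562 genes. The SE is the absolute log2 fold change over the square root of F. The method was tested on simulated data. The genes named were every mitochondrial gene, up to 4 called higher and 4 called lower per complex by adjusted p, isoform sets, X-linked genes and up to 3 called per list, and other genes named were chosen after their values were seen. The values of 1 gene that the rule names are not reported here. Copies were found with BLAST+ 2.17.0 among GENCODE transcripts. Promoter windows came from RefSeq, and 14 nuclear genes were not matched.

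A count of 0 allows up to 0.0573 to 0.0905 CPM per library (3 counts, counting error only; the labels name no molecular identifiers). The biological coefficient of variation was 16.4%. Within groups, pairs of libraries gave chi-square values over their degrees of freedom between 17.7 and 50.7, far above sampling noise. Per the labels, same-numbered libraries share a litter. Their deviations correlated at -0.013, 0.155, -0.025, 0.042 and 0.20 for numbers 1 to 5. The libraries of a group come from separate embryos, per the labels' protocols.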

Additional observations from a re-analysis of the deposited data

How the results depend on the processing

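Of 50 named members, 33 were called, and 13 stayed called in all 23 alternatives, among them Atp5g1, Atp5j, Cox6a1, Cox6b2, Ndufb10, Ndufb6, Sdhb, Uqcr11, mt-Nd1, mt-Nd2, mt-Nd5 and mt-Nd6. Over all 1150 values of named members under these alternatives, 1010 kept their direction and call, 92 lost the call, 30 gained it and 18 changed sign, none of a called gene. The count of all genes called went from 7245 to 4023 without litter A (3 libraries per group) and from 6279 to 7028 on leaving out 1 library. The nuclear count of 32 became 10 without litter A, 19 with only the controls labelled as without Cre, 20 without the 2 libraries with high Xist and 22 to 32 on leaving out 1 library, lowest without knockout 4. Without the 2 libraries with high Xist, Atp5c1 (edgeR adjusted p = 0.0888), Atp5o (0.0637), Cox7c (0.0632), Cox8a (0.0888), Ndufa3 (0.0954), Uqcr10 (0.0553) and Uqcrq (0.18) were lost among the named members and mt-Co2 (0.0193) was gained. The mitochondrial count of 7 became 11 with library size only, 4 with copies added and 5 to 8 on leaving out 1 library, lowest without control 3, control 5 or knockout 5. Fits that combine copies with another choice were chosen after seeing the data. With copies added, 4 to 5 mitochondrial and 22 to 33 nuclear genes were called on leaving out 1 library, and 4 and 10 without litter A. With copies and a replicate block by litter 7 and 30 were called. The replicate block by litter called 7314 genes in all, 31 nuclear and 10 mitochondrial members, and the block by number 6850, 23 and 10. All 32 nuclear calls but that of Atp5d remained under the litter block. The difference in the mitochondrial share of counts, 0.489 percentage points, ran from 0.37 (without knockout 5) to 0.564 on leaving out 1 library and was 0.684 without litter A. Signs changed in uncalled genes near 0. Cox7a2 was at 0.022 with library size only and -0.072 to 0.004 leaving out 1 library. Cox7a2l was at 0.003 with library size only. Cox7b was at 0.039 with library size only, 0.067 without litter A, 0.022 without the high-Xist libraries and -0.061 to 0.028 leaving out 1 library. Ndufa1 ran from -0.005 to 0.056 leaving out 1 library. Ndufb11 was at -0.0 without a filter, -0.029 without litter A and -0.024 to 0.02 leaving out 1 library. The cause was not tested.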

Other observations

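Nuclear genes of mitochondrial pathways next to the respiratory chain were mostly higher in the knockout where they were called, and genes of glycolysis were mostly lower, in the same edgeR fit that called 35.2% of all genes. Of 14 citric acid cycle genes, 8 were higher and 1 lower. Mdh2, malate dehydrogenase, was at 207.8 ± 11.4 and 266.0 ± 9.06 CPM and Suclg2, a succinyl-CoA ligase subunit, at 82.6 ± 1.64 and 99.1 ± 4.02 CPM, while Idh2, the NADP-dependent isocitrate dehydrogenase, fell from 263.7 ± 8.68 to 190.8 ± 11 CPM (SD, n = 5 each). Of 19 glycolysis genes, 1 was higher and 7 lower, among them Gapdh (log2 fold change -0.36), Pfkp (-0.61) and Ldhb (-0.26). Of 17 import genes, 9 were higher and none lower, with the receptors and channel Tomm22, Tomm70a and Tomm40 at 0.24, 0.30 and 0.36. Of 78 mitochondrial ribosomal protein genes, 27 were higher and 1 lower. Their called share of 35.9% was close to that of all genes and below the 41.6% of protein-coding genes tested. Mrps7 was at 0.30, Mrps2 at 0.30 and Mrpl12 at 0.34. In ubiquinone synthesis 3 of 13 genes were higher and 1 lower, with Coq5 at 0.41.

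Regulators of mitochondrial biogenesis went both ways, with 6 of 17 higher and 6 lower. Esrra, a nuclear receptor that binds promoters of respiratory genes, rose from 7.97 ± 1.78 to 20.6 ± 1.03 CPM, and the coactivator Pprc1 from 97.5 ± 7.06 to 133.9 ± 9.51 CPM, as did Nfe2l2, a regulator of the oxidative stress response, from 34.1 ± 1.89 to 48.4 ± 1.78 CPM (SD, n = 5 each). Ppargc1a, a coactivator of oxidative metabolism, fell from 10.9 ± 2.54 to 5.09 ± 2.17 CPM, and its relative Ppargc1b rose from 2.54 ± 0.306 to 4.08 ± 0.481 CPM (SD, n = 5 each). Ppargc1a and Ppargc1b were singled out after their values were seen. The changes in cell type markers given in the report run alongside these values, and their part in them was not tested.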
